A study of Gallus gallus with 12 samples.

Results

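The genes described here encode the proteasome: its core and cap subunits, its activator and inhibitor, and the chaperones that help assemble it. They were selected by name, as transcript clusters carrying 1 gene symbol that starts with PSMA, PSMB, PSMC, PSMD, PSME, PSMF or PSMG. The rule found 29 genes in 30 clusters, of 11528 named genes and 20804 clusters on the arrays, and the brighter cluster of PSMD2 stood for that gene. The samples were Pectoralis major (breast muscle) of Ross 708 broilers, a commercial meat chicken, all labelled male and reared in 1 flock to an average live weight of 3.7 kg. Of the fillets, taken after slaughter, 6 showed white striping with wooden breast and are called affected, and 6 were normal. White striping and wooden breast are muscle disorders recognised by white lines along the fibres and by hardening, and no treatment or genotype set the groups apart. Each bird gave 1 whole-transcript array, so that n = 6 per group throughout and each replicate is a separate bird. The age of the birds is not stated in the labels.

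The proteasome is the protease complex that degrades proteins tagged with ubiquitin. Its core is a barrel of stacked rings, with alpha rings that gate the entrance and beta rings that hold the cutting sites inside. A cap, the regulatory particle, recognises tagged proteins with its lid and base, removes the ubiquitin, and unfolds the protein with a ring of ATPases. In skeletal muscle it removes most myofibrillar protein during wasting, and its subunit genes are known to be controlled together. The family covered 6 alpha ring genes, 5 beta ring genes, 2 base ATPases, 2 other base subunits, 6 lid subunits, 3 base assembly chaperones, 1 activator with 1 inhibitor, and 3 core assembly chaperones. RefSeq's chicken gene table (assembly GRCg7b) lists 39 symbols of the family, leaving out PSMC3IP, a meiotic recombination factor that shares the letters. Of these, 10 had no cluster of their own here and were not analysed. They include PSMB5, a catalytic beta subunit, PSMD4, a ubiquitin receptor, and PSMC5, whose cluster is shared with SMARCD2.

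The arrays had medians from 4.05 to 4.16 on the log2 scale and correlations between 0.941 and 0.987. Their distributions were not the same in the 2 groups. Lower quartiles were 2.84 to 2.89 in affected and 2.90 to 3.01 in normal birds, without overlap. Upper quartiles were 5.51 to 5.55 in affected and 5.41 to 5.53 in normal birds. Muscle identity was clear: ACTA1, TNNT3, TNNC2, TNNI2 and TTN, the 5 measured of 12 fibre markers, averaged 11.7 to 11.9 in every affected bird and in every normal bird. Normal birds 1, 4 and 5 carried transcripts of the female-specific W chromosome, although labelled male. There HINTW, a W-linked gene, stood between 8.51 and 9.41, against 2.46 to 2.99 on the other 9 arrays. None of the 29 proteasome genes lies on Z or W in GRCg7b. In limma's fit over all clusters 238 were called at an adjusted p under 0.05, and that count was 3 without the 3 arrays with W transcripts.

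No proteasome gene passed the test between affected and normal muscle. The difference, affected minus normal, ran from -0.38 for PSMB4 to 0.30 for PSMD5 on the log2 scale, with standard errors of 0.08 to 0.28. None of the 29 genes had an adjusted p under 0.05 in limma's fit, against 1.14% of all clusters, and the smallest was 0.0553. At an unadjusted p under 0.05 there were 3 genes, PSMB4, PSMA1 and PSMD5, which is 10.3% of the family, while 22.1% of all clusters reached that level. In none of the 29 did affected and normal birds separate without overlap, as they did in 2.17% of all clusters. Signs were mixed, with 17 differences below 0 and 12 above, and the median was -0.03. Over all clusters 56.1% of differences lay below 0 and the median was likewise -0.03. Over the 11528 named genes the median was 0.003, with 5690 differences below 0 and 5838 above. Among the 2557 named genes with a mean level above 6 it was 0.06, with 1011 below 0 and 1546 above.

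The signs depended on single birds: 6 differences were positive without normal bird 1, 19 without normal bird 2 and 7 without the 3 arrays with W transcripts. Intervals of the sizes are given for 28 genes, since the cluster of PSMB7 was not distinguishable from background. For 27 of the 28 the 95% interval of the difference lay inside a 1.5-fold change in either direction, and for all 28 inside a 2-fold change. Over all clusters 78.2% and 95.0% of intervals were that narrow. PSME4 was the gene whose interval passed 1.5-fold. Without the 3 arrays with W transcripts the intervals of PSMB4 and PSMD6 passed it too. That of PSMD5 passed it with median centring and in several fits leaving out a bird. Those of PSMA5 and PSMD5 did so without normal bird 2 and affected bird 4. The interval of PSMB4 also passed it with quantile normalization, with a trended robust variance and in some fits leaving out a bird. With the HINTW level as a covariate 23 of 28 lay inside 1.5-fold, and that of PSME4 passed 2-fold. In bulk muscle fewer cells of a type and less RNA per cell cannot be told apart.

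**Figure D1:**
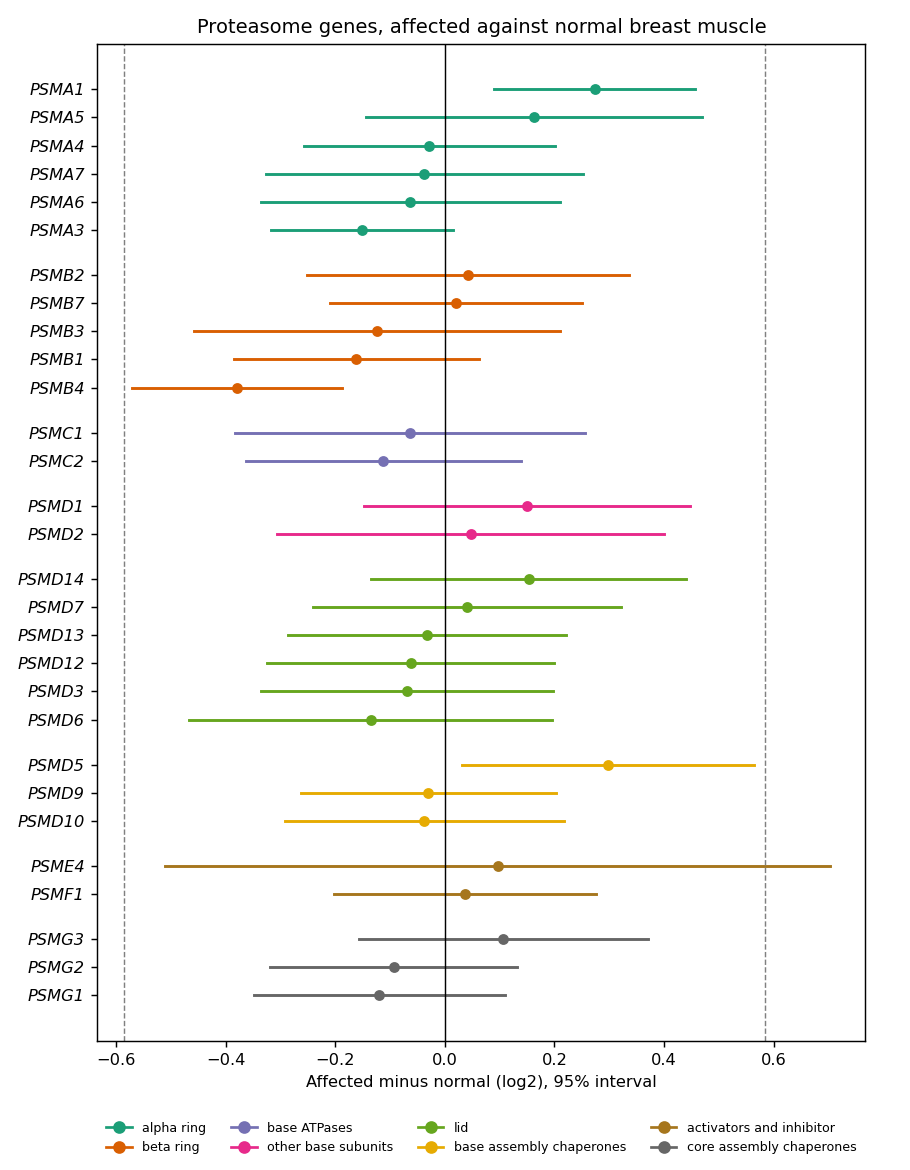
Difference in level, affected minus normal muscle, for each of the 29 proteasome genes (log2, x axis), grouped by role. Points are limma's estimates over 6 affected and 6 normal birds, lines are 95% intervals, and dashed lines mark 1.5-fold. Only the interval of PSME4 passes a dashed line, and those of PSMB4, PSMA1 and PSMD5 do not reach 0.

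Among the alpha ring genes, PSMA1 and PSMA3 lay furthest apart. PSMA1 had levels of 9.74, 9.84 and 9.93 (lowest, median and highest) in affected birds, against 9.26, 9.61 and 9.74 in normal birds. Of the affected birds 5 lay above every normal bird, and the sixth, affected bird 3, lay just below normal bird 6. The difference was 0.27 ± 0.09 (log2 difference ± SE, 1.21-fold, 95% interval 1.06 to 1.37), with an adjusted p of 0.101. Without the 3 arrays with W transcripts it was 0.20. PSMA3 had levels of 7.71, 7.80 and 8.01 in affected birds, against 7.88, 7.94 and 8.18 in normal birds. For this gene 4 affected birds lay below every normal bird, while affected bird 5 was higher than all normal birds except bird 2. Its difference was -0.15 ± 0.08, with an adjusted p of 0.265. PSMA5 was at 7.67, 8.20 and 8.24 in affected birds, against 7.49, 8.00 and 8.26 in normal birds (difference 0.16 ± 0.14, adjusted p = 0.523). The ranges of PSMA5 overlapped almost fully. PSMA4, PSMA6 and PSMA7 differed by -0.03, -0.06 and -0.04. Over the 6 alpha ring genes the median difference was -0.03, with 2 positive and 4 negative.

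In the beta ring, PSMB4, a non-catalytic subunit of that ring, had the smallest p of the family. Its levels in affected birds 1 to 6 were 8.11, 7.69, 7.78, 7.76, 7.78 and 7.84, against 8.24, 8.44, 8.24, 8.09, 8.05 and 8.18 in normal birds 1 to 6. Affected birds 2 to 6 lay below every normal bird, and affected bird 1 lay within the normal range. The mean was 7.83 ± 0.15 in affected and 8.21 ± 0.14 in normal birds (SD, n = 6 each). The difference was -0.38 ± 0.09, a level of 0.769 of normal (95% interval 0.674 to 0.878), with an adjusted p of 0.0553. This gene crossed the threshold when single choices were changed. The adjusted p was 0.0239 without affected bird 1, 0.0496 without normal bird 5, 0.0470 with array weights and 0.0481 with dim clusters removed. Leaving out affected bird 1, the affected bird within the normal range, favours a smaller p by construction. Over all alternatives the adjusted p ran from 0.0239 to 0.169. The difference kept its sign throughout, between -0.47 and -0.31, and leaving out the 3 arrays with W transcripts gave -0.46, with an adjusted p of 0.119.

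**Figure D2:**
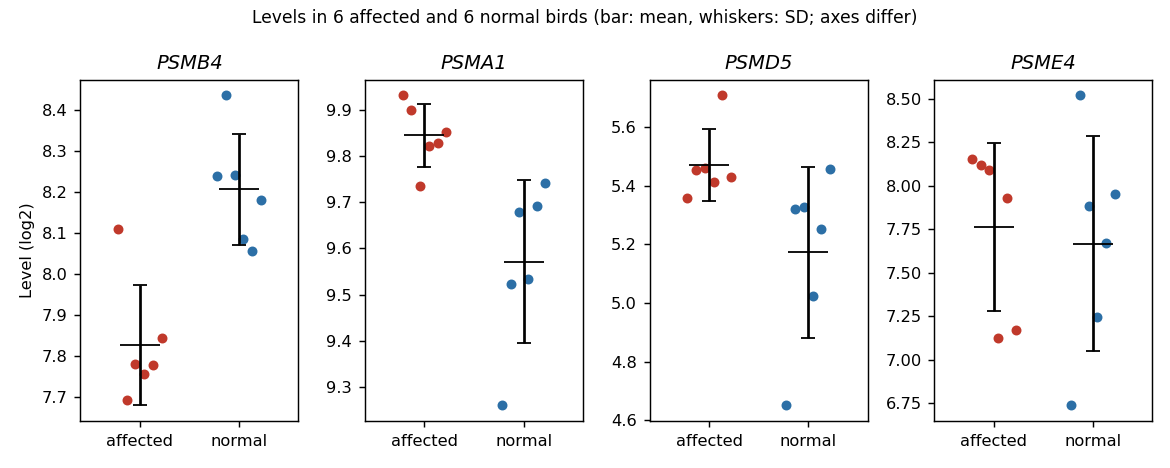
Levels (log2, y axes, a different range in each panel) of PSMB4, PSMA1, PSMD5 and PSME4 in 6 affected birds (red) and 6 normal birds (blue). Points are birds, the bar is the mean and the whiskers are the SD. For PSMB4 all affected birds but 1 lie below the normal birds, and for PSME4 the birds of both groups spread over more than 1 log2 unit.

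The other beta ring genes showed no difference beyond the spread between birds. PSMB1 was at 7.50, 7.53 and 8.00 in affected birds, against 7.69, 7.74 and 8.10 in normal birds. Affected birds 2, 3, 4 and 6 lay below all normal birds and affected bird 1 above most of them (difference -0.16 ± 0.10, adjusted p = 0.369). PSMB2 was at 7.38, 7.53 and 7.76 in affected birds, against 6.91, 7.60 and 7.85 in normal birds, with normal bird 1 lowest (difference 0.04 ± 0.14, adjusted p = 0.881). PSMB3 differed by -0.12. PSMB7, which encodes a catalytic subunit, read between 2.62 and 3.04 in affected birds and between 2.52 and 3.15 in normal birds. That is where HINTW read on arrays without W transcripts, so the PSMB7 cluster was not distinguishable from background and its difference of 0.02 carries no information on the gene.

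The measured cap genes with a PSM symbol differed by at most 0.15 in either direction. Of 10, 4 had a positive and 6 a negative difference, with a median of -0.05. Both measured ATPases, PSMC1 and PSMC2, which unfold the substrate, were slightly below 0. PSMC2 had levels of 7.53, 7.71 and 8.04 in affected birds, against 7.43, 7.89 and 8.06 in normal birds (difference -0.11 ± 0.12, adjusted p = 0.592). PSMC1 had levels of 7.91, 8.04 and 8.38 in affected birds, against 7.89, 8.12 and 8.80 in normal birds (difference -0.06 ± 0.15, adjusted p = 0.832). The lowest PSMC2 level belonged to normal bird 1 and the highest PSMC1 level to normal bird 2, and otherwise the groups overlapped.

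The large base scaffolds PSMD1 and PSMD2 had small positive differences. PSMD1 was at 8.96, 9.01 and 9.32 in affected birds, against 8.40, 8.94 and 9.34 in normal birds (difference 0.15 ± 0.14, adjusted p = 0.543). PSMD2 was at 7.20, 7.54 and 7.81 in affected birds, against 6.88, 7.42 and 7.92 in normal birds (difference 0.05 ± 0.16, adjusted p = 0.890). Normal bird 1 was lowest and normal bird 2 highest for both, and without the 3 arrays with W transcripts the differences were -0.09 and -0.18.

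Of the 6 lid genes with a PSM symbol, PSMD14 had the highest difference and PSMD6, a structural subunit, the lowest. PSMD14 cleaves ubiquitin chains off the substrate. PSMD14 levels were 7.52, 7.76 and 7.93 in affected birds, against 6.98, 7.65 and 7.88 in normal birds (difference 0.15 ± 0.13, adjusted p = 0.519). Normal bird 1 alone lay below the affected range. PSMD6 levels were 6.72, 6.95 and 7.51 in affected birds, against 6.82, 7.13 and 7.62 in normal birds (difference -0.14 ± 0.15, adjusted p = 0.632). The groups of PSMD6 overlapped over most of their range. PSMD7, the partner of PSMD14 in the lid, was at 8.92, 9.15 and 9.27 in affected birds, against 8.67, 9.06 and 9.58 in normal birds (difference 0.04 ± 0.13, adjusted p = 0.884). Its affected birds all lay inside the normal range. PSMD3, PSMD12 and PSMD13 differed by -0.07, -0.06 and -0.03.

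No assembly factor passed the test. PSMD5, a chaperone that binds the ATPase ring during base assembly and is not part of the finished complex, was at 5.36, 5.44 and 5.71 in affected birds, against 4.65, 5.29 and 5.46 in normal birds. All 6 affected birds lay above the normal median and 2 above every normal bird. The difference was 0.30 ± 0.12 (1.23-fold, 95% interval 1.02 to 1.48), with an adjusted p of 0.181. It was 0.10 without the 3 arrays with W transcripts, among which normal bird 1 was the lowest of all birds. PSMD10 (gankyrin), another base chaperone, was at 5.03, 5.50 and 5.64 in affected birds, against 5.18, 5.48 and 5.76 in normal birds (difference -0.04 ± 0.12, adjusted p = 0.880), and PSMD9 differed by -0.03.

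The core chaperones PSMG1 and PSMG2, which work as a pair on the alpha ring, had negative differences. PSMG1 was at 5.13, 5.26 and 5.50 in affected birds, against 5.04, 5.41 and 5.65 in normal birds (difference -0.12 ± 0.11, adjusted p = 0.530). PSMG2 was at 6.12, 6.34 and 6.51 in affected birds, against 6.17, 6.40 and 6.75 in normal birds (difference -0.09 ± 0.11, adjusted p = 0.626). PSMG3, a further core chaperone, was at 5.27, 5.92 and 6.06 in affected birds, against 5.51, 5.71 and 5.89 in normal birds (difference 0.11 ± 0.12, adjusted p = 0.635). For PSMG3 4 affected birds lay above all normal birds and affected bird 6 lay below them all.

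PSME4 encodes PA200, an activator that opens the core without ubiquitin, and PSMF1 encodes PI31, known as an inhibitor of the core in the test tube. PSME4 was the most variable of the 29 genes within groups, with a pooled SD of 0.55 against 0.11 to 0.31 for the others. It had levels of 8.15, 8.12, 8.09, 7.13, 7.93 and 7.17 in affected birds 1 to 6, against 6.74, 8.52, 7.88, 7.24, 7.67 and 7.95 in normal birds 1 to 6. In each group some birds were near 8 and others near 7. The difference was 0.10 ± 0.28 (adjusted p = 0.869), and it was -0.35 without the 3 arrays with W transcripts, which hold the 3 lowest normal levels. PSMF1 stood at 6.08, 6.33 and 6.40 in affected birds, against 5.81, 6.28 and 6.50 in normal birds (difference 0.04 ± 0.11, adjusted p = 0.872). The affected birds of PSMF1 lay within the normal range.

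The larger variation in these genes was between birds of the same group, and the subunits moved together. Each gene's level was set against its own mean over the 12 birds, and the median of these deviations was taken over the 29 genes. This family median was 0.19, -0.03, -0.05, -0.09, 0.12 and -0.18 in affected birds 1 to 6, against -0.32, 0.27, -0.02, 0.03, 0.05 and 0.06 in normal birds 1 to 6. Both extremes were normal birds. Normal bird 1 had the lowest level of all 12 birds for 17 of the 29 genes, and normal bird 2 the highest for 15. Among affected birds, 25 and 27 of the 29 genes were above their own mean in birds 1 and 5, against 6 and 7 in birds 4 and 6. Such counts were not made for other genes, so how far they are particular to this family was not tested. The core and the cap gave the same order at both ends. In normal birds 1 and 2 the core medians were -0.31 and 0.33 and the cap medians -0.38 and 0.38.

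**Figure D3:**
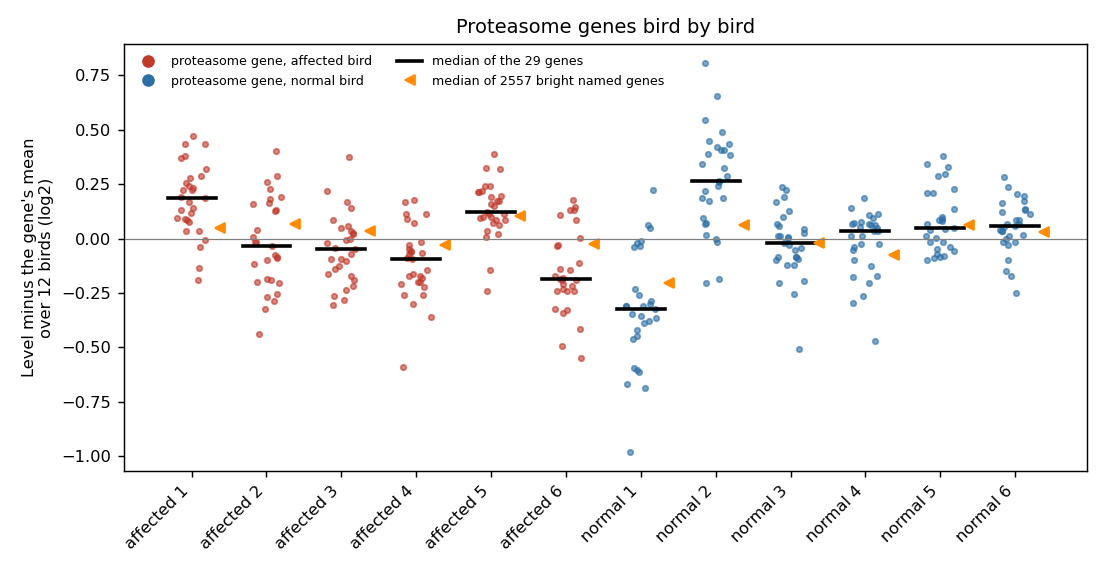
Deviation of each of the 29 proteasome genes from its own mean over the 12 birds (log2, y axis), bird by bird, affected birds in red and normal birds in blue. Black bars are medians of the 29 genes and orange triangles are medians of 2557 named genes with a mean level above 6. The black bars run from -0.18 to 0.19 in affected and from -0.32 to 0.27 in normal birds.

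Other measures were set beside this family level and followed it in some birds only. The median deviation of 2557 named genes with a mean level above 6 was -0.21 in normal bird 1, and between -0.03 and 0.10 in affected and -0.08 and 0.06 in the other normal birds. In normal bird 2 this median of the 2557 genes was 0.06. In affected birds 1, 5, 4 and 6 it was 0.05, 0.10, -0.03 and -0.03. For affected bird 5 it was thus close to the family median of 0.12. Normal bird 1 also had the highest array median, 4.16, while its upper quartile of 5.41 was shared with normal bird 4 and below that of all other birds. After quantile normalization, which gives all arrays 1 distribution, the family median was -0.25 in normal bird 1 and 0.22 in normal bird 2, so both stayed at the ends of the range. Fibroblast markers (6 of 8 measured) averaged 8.15 to 9.69 in affected birds, against 5.96 to 8.48 in normal birds. All 6 had a positive difference, with a median of 1.12 (log2), and all 6 had an unadjusted p under 0.05 in limma's fit. Over all clusters 22.1% reached that level. For POSTN the groups did not overlap, as in 2.17% of all clusters, and the smallest adjusted p of the 6 was 0.0583. Normal bird 2, highest for the proteasome, was lowest for these markers. Affected birds 4 and 6, lowest for the proteasome, were highest, with 9.69 and 9.35, and affected birds 1 and 5 were lowest of their group, with 8.73 and 8.15. Within the normal group the other birds did not follow that order. Normal bird 1, lowest for the proteasome, was at 8.08, and in normal birds 3 to 6 the markers, at 7.69, 8.05, 8.29 and 8.48, had the same order as the family median. Myeloid markers (8 of 11 measured) averaged 5.86 to 6.94 in affected and 4.61 to 6.29 in normal birds, again lowest in normal bird 2 and highest in affected bird 4. The part of these cells in the proteasome values was not tested.

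Co-variation was described by the correlation of each pair of genes over the 12 birds, after removing the group means. All points share the same arrays and RNA, so these are descriptions with no test. Over the 406 pairs the median Pearson r was 0.53 (Spearman rho 0.40), and 92.4% of pairs were positive. Among pairs of the 2557 bright named genes the median was 0.12 and 59.8% were positive. Cap subunits had a median pairwise r of 0.77 and core subunits of 0.48. These medians of cap and core were taken over all 12 birds only, so their dependence on single birds was not tested. PSMB7, whose cluster was not distinguishable from background, is counted in the 406 pairs and in the core. Without normal birds 1 and 2 the family median was 0.37, against 0.08 for the bright genes, and without the 3 arrays with W transcripts it was 0.41, against 0.05. After quantile normalization it was 0.44, against 0.04. Both steps together, quantile normalization and leaving out normal birds 1 and 2, gave 0.29 with 72.9% of pairs positive, against 0.03, so the size of the correlation rests in part on those birds and on the scaling. The median was 0.47 within affected birds and 0.62 within normal birds.

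**Figure D4:**
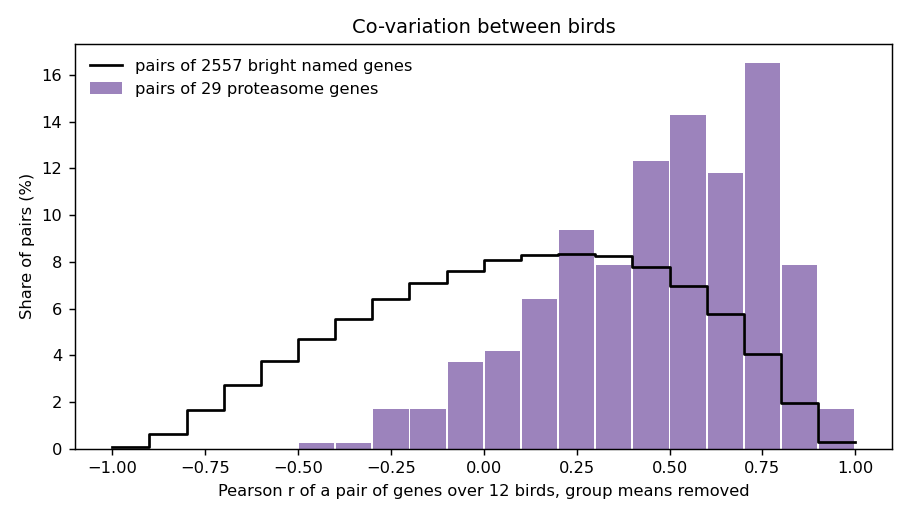
Distribution of pairwise Pearson correlations over 12 birds with group means removed (x axis), as the share of pairs in percent (y axis). Purple bars are the 406 pairs of 29 proteasome genes, and the black line is all pairs of the 2557 named genes with a mean level above 6. The proteasome pairs have their median at 0.53 and the other pairs at 0.12.

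Members differed in how closely they followed the rest. Each gene was correlated with the median deviation of the other 28, group means removed, over the 12 birds. All 10 cap genes had r between 0.75 and 0.94, led by the lid subunit PSMD12. In the core the range was from 0.41 for PSMB4 to 0.94 for PSMA6, a subunit of the alpha ring. Of all 29, the 4 under 0.5 were PSMB4 and the assembly chaperones PSMD10 (0.28), PSMG3 (0.15) and PSMG2 (0.03). That set depends on normal birds 1 and 2. Without them these 4 genes stood at 0.44, -0.11, 0.38 and 0.32. PSMF1 was then the lowest of the 29 at -0.31, and PSMD5 (0.19) and PSMA1 (0.23) were among others under 0.5. PSMB7, whose cluster was not distinguishable from background, is among the 29 and had r of 0.57. An r of that size was thus also reached by a cluster with no information on its gene. Without normal birds 1 and 2 its r was -0.06. Spearman's rho was 0.87 for PSMD12, 0.86 for PSMA6, 0.13 for PSMB4 and 0.06 for PSMG2. Without normal birds 1 and 2 the cap range widened to between 0.28 (PSMD1) and 0.91 (PSMD6). The core range was then between -0.06 (PSMB7) and 0.92 (PSMA6). The closeness of some members thus rests on those birds.

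Of 50 measured genes in 5 lists of related genes, 1 passed the test, which is 2.0% against 1.14% of all clusters. At an unadjusted p under 0.05 there were 13, which is 26.0% against 22.1% of all clusters. The 15 listed partners without a PSM symbol included cap subunits, assembly factors, deubiquitinases and adaptors. Of the 12 measured, none passed and the median difference was 0.05. The smallest p was that of PITHD1, a protein with the proteasome-interacting thioredoxin domain, at -0.43 ± 0.13 (adjusted p = 0.0945). Next came SHFM1, a lid subunit without a PSM symbol, at -0.33 ± 0.14 (adjusted p = 0.188). The largest positive differences of this list were those of TXNL1 (0.32), ECPAS (0.34) and ZFAND5 (0.36), all encoded on the Z chromosome. For each of them normal birds 1, 4 and 5, with W transcripts, were the lowest normal birds. ZFAND5 was at 6.26 to 6.80 in those birds, 7.61 to 8.23 in the other normal birds and 6.92 to 7.89 in affected birds. For ECPAS these ranges were 6.48 to 6.88, 7.34 to 7.86 and 7.20 to 7.76. For TXNL1 they were 6.76 to 7.155, 7.53 to 7.95 and 7.41 to 7.92. Of 10 measured ubiquitin supply genes (of 16: ubiquitin itself, its activating and its conjugating enzymes), none passed and the median was 0.03. UBE2K, a ubiquitin-conjugating enzyme, differed by -0.33 ± 0.11 (adjusted p = 0.108). Of 12 measured shuttles and segregase cofactors (of 18), which carry tagged proteins to the proteasome or pull them out of complexes, none passed and the median was 0.17. There UBQLN1, a shuttle encoded on the Z chromosome, differed by 0.62 ± 0.16 (adjusted p = 0.0689), and by 0.36 without the 3 arrays with W transcripts. RAD23B, also on Z, differed by 0.38 ± 0.27 (adjusted p = 0.415). It was at 6.77 to 7.61 in normal birds 1, 4 and 5, 7.76 to 8.79 in the other normal birds and 7.72 to 8.37 in affected birds. The arrays with W transcripts were all of normal birds, and their part in the medians of these lists was not tested.

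Of 10 measured regulators of proteasome genes (of 16 listed transcription factors and cofactors) none passed, and the median was -0.05. The differences lay on both sides of 0, from -0.54 to 0.69. An unadjusted p under 0.05 in limma's fit was reached by 4 of the 10, against 22.1% of all clusters. NFYA, a subunit of the factor that binds CCAAT boxes, differed by 0.46 ± 0.12 (adjusted p = 0.0674). The others were NFE2L2 at -0.54 (adjusted p = 0.0757), BACH1 at 0.36 (adjusted p = 0.0830) and HSF2 at 0.69 (adjusted p = 0.164). NFE2L2 was dim, at 3.44 to 3.90 in affected and 3.75 to 4.76 in normal birds. All its affected levels lay below the array medians of 4.05 to 4.16. NFE2L1, KEAP1, HSF1, FOXO1 and FOXO3 were among those not measured. The call came from the cytosolic chaperonin, another large complex of protein quality control, which folds actin and tubulin. All 6 measured of 8 subunits had positive differences, with a median of 0.09, and CCT2 passed. The 6 had mean levels of 6.85 or more. Among the 2557 named genes with a mean level above 6, 1546 differences were positive and the median was 0.06, so the median of 0.09 lay near that of bright genes. CCT2 was at 7.36, 7.64 and 7.74 in affected birds, against 6.82, 7.01 and 7.38 in normal birds, and 5 affected birds lay above every normal bird. It rose by 0.54 ± 0.11 (1.45-fold, adjusted p = 0.0389). CCT2 kept that call in 10 of 21 alternatives. Leaving out the 3 arrays with W transcripts gave 0.43 with an adjusted p of 0.151, and leaving out any 1 of normal birds 1, 3 and 4 or affected birds 2, 3, 4 and 6 gave an adjusted p from 0.0641 to 0.0930.

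**Figure D5:**
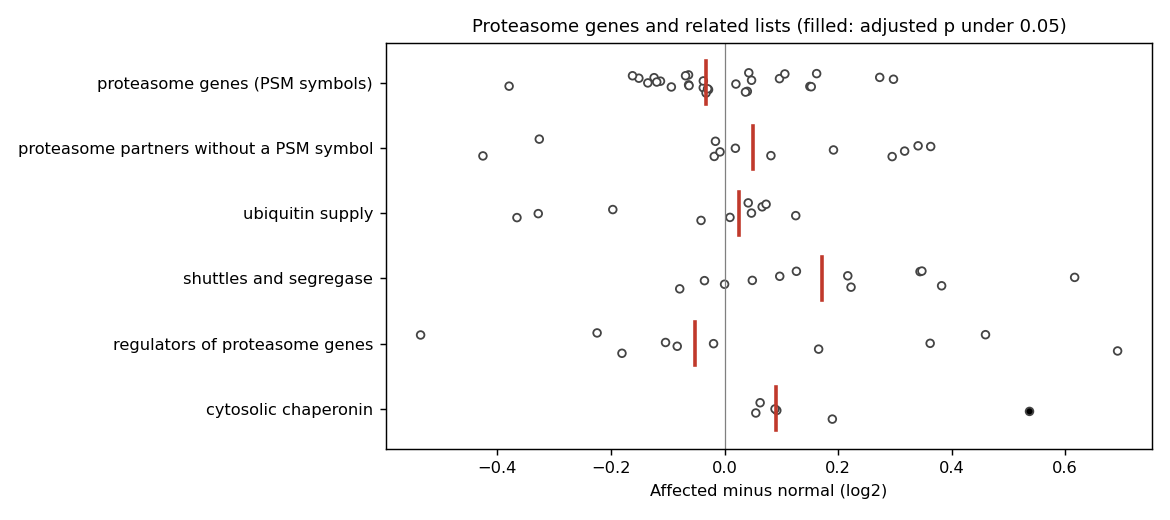
Difference in level, affected minus normal muscle (log2, x axis), for the 29 proteasome genes and for 5 lists of related genes. Each circle is a gene, filled where the adjusted p is under 0.05, and red bars are medians. CCT2, at 0.54, is the filled circle, and the proteasome median is -0.03.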

How the data were processed

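Total RNA from 12 breast muscles was labelled from 150 ng with an Affymetrix whole-transcript kit and hybridised on 12 arrays, per the labels' protocols. Partek is the tool named in the submitters' processing notes, where background correction, summarization and genome build are not stated. The deposited values were read as log2 levels per transcript cluster, the log base being inferred from their range of 1.04 to 12.9. Clusters were named from the platform annotation (12300 with 1 symbol, 256 with several, 8248 with none). Names of the related lists and chromosomes came from RefSeq's table of GRCg7b, matched by Entrez ID for 11727 clusters and for all 29 members.

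Groups follow the phenotype label, and replicate numbers follow accession order and pair no birds. Sample numbers in the titles are lower for normal than for affected birds, so an order of processing cannot be told apart from the phenotype. Differences were fitted with limma 3.58.1 (lmFit, then eBayes, with 10 residual and 3.39 prior degrees of freedom) in R 4.3.3. Benjamini-Hochberg adjustment of the two-sided p ran over the 20804 clusters, with a threshold of 0.05. The fit was tested on simulated data with independent noise in each cluster. That simulation held no effect shared by birds or arrays, so it cannot speak to such effects. Array number limits the precision.

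The members and lists were chosen with earlier results of these data known. Values in full are given for the members past the threshold, or else the 12 with the smallest p, the brightest 2, and the highest and lowest difference of each role (20 genes). Alternatives were other scalings, removal of dim clusters, array weights, a trended robust variance, leaving out the arrays with W transcripts, HINTW as a covariate, the mean of a gene's clusters, and leaving out birds. Leaving out normal birds 1 and 2 was chosen after seeing the data. Figures were drawn with matplotlib 3.10.9.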

Additional observations from a re-analysis of the deposited data

Results flagged for a closer look

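Among 58 sets of 6 birds (29 genes in 2 groups), 10 held a bird set apart from the other 5 by more than Dixon's 95% limit for 6 samples. Chance alone flags about 1 in 20 independent sets. These sets share the same birds and hold genes that vary together, so their count cannot be judged against that rate. In affected muscle, bird 1 was high for PSMB4 (8.11, others 7.69 to 7.84) and bird 5 for PSMD5 (5.71, others 5.36 to 5.46). Affected bird 2 was low for PSMD10 (5.03, others 5.48 to 5.64) and affected bird 6 for PSMG3 (5.27, others 5.80 to 6.06). In normal muscle, bird 2 was high for PSMA3 (8.18, others 7.88 to 7.96), PSMB1 (8.10, others 7.69 to 7.77) and PSMC1 (8.80, others 7.89 to 8.23). Normal bird 1 was low for PSMC2 (7.43, others 7.84 to 8.06), PSMD14 (6.98, others 7.61 to 7.88) and PSMD3 (6.05, others 6.49 to 6.62). So 6 of the 10 were normal birds 1 and 2, the ends of the family level. Leaving out affected bird 1 brings PSMB4 past the threshold (adjusted p = 0.0239 in limma's fit). That bird was picked from these same values and was the affected bird inside the normal range, so its removal favours a smaller p by construction.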

How the results depend on the processing

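No proteasome gene passed in 18 of 22 alternative settings, and 1 gene, PSMB4, passed in each of the other 4. These were the filter on dim clusters (1 call), array weights (1 call) and 2 of the fits leaving out a bird (0 to 1 calls). The family's median difference ran from -0.11 to 0.04. The family median of single birds had a pooled within-group SD of 0.17, which is a spread of birds and not the error of a group difference. All clusters called numbered 384 with dim clusters removed, 3 without the arrays with W transcripts, 9 with HINTW as a covariate, 1 without normal bird 2 and affected bird 4, 2 without normal birds 1 and 2 (chosen after seeing the data), and 1 to 588 when leaving out a bird. Of the 20 genes given in full, 10 kept their sign in every setting run. The other 10 changed sign, with adjusted p never under the threshold at the changed sign. Without the arrays with W transcripts the differences were -0.00053 (PSMB2), -0.090 (PSMD1), -0.18 (PSMD2), -0.17 (PSMD7), -0.35 (PSME4), -0.011 (PSMF1) and 0.0014 (PSMG2). With HINTW as a covariate they were -0.10 (PSMD1), -0.18 (PSMD2), -0.19 (PSMD7), -0.37 (PSME4) and 0.018 (PSMG2). Without normal birds 1 and 2 they were -0.076 (PSMB2), 0.027 (PSMC1) and -0.023 (PSMF1), and without normal bird 2 and affected bird 4 they were 0.087 (PSMC1) and 0.019 (PSMD6). PSMB2 was at -0.0072 with array weights, PSMF1 at -0.019 after quantile normalization and PSMD2 at -0.0050 as the mean of its clusters. Leaving out a bird gave -0.076 to 0.11 (PSMB2), -0.12 to 0.061 (PSMC1), -0.10 to 0.047 (PSMD10), -0.068 to 0.14 (PSMD2), -0.040 to 0.14 (PSMD7), -0.089 to 0.27 (PSME4) and -0.052 to 0.086 (PSMF1). The cause was not tested. Fits with fewer birds or fewer clusters tested also differ in power by construction. Removing dim clusters leaves out PSMB7. Signal limits PSMB7, which was not distinguishable from background.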

Other observations

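A second cluster of PSMD2, dimmer than the one used, stood at 5.27 to 5.95 in affected and 5.38 to 6.14 in normal birds, with a difference of -0.06 ± 0.15 (adjusted p = 0.847), against 0.05 in the brighter cluster. The cluster annotated to both PSMC5, a base ATPase, and SMARCD2, a chromatin remodelling subunit, stood at 6.97 to 7.51 in affected and 6.92 to 7.60 in normal birds, with a difference of -0.06 ± 0.12 (adjusted p = 0.807). Its signal cannot be assigned to either gene.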
